A study of Mus musculus with 4 samples.

Results

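Foxj1 and 4 genes of the regulatory factor X (RFX) family, Rfx1, Rfx2, Rfx3 and Rfx7, were followed across the cell types of mouse lung. These 5 genes were chosen by symbol among the 57010 genes of the count table, and each symbol named 1 gene (ENSMUSG00000034227, ENSMUSG00000031706, ENSMUSG00000024206, ENSMUSG00000040929 and ENSMUSG00000037674, in that order). Lungs came from C57Bl6/J mice aged 8 weeks. In 1 group (Cre_Pos, Shh.Cre+/Flox-p73), 6 mice carried a Cre recombinase driven by Shh, a gene active in lung epithelium, together with a Trp73 (p73) allele floxed at exons 7 to 9. The other group (Cre_Neg, Shh.Cre-/Flox-p73) was 6 littermates homozygous for the same floxed allele without Cre. Cells were depleted of CD45+ cells, enriched for Epcam+ cells, sorted for exclusion of the dye DAPI and read by SPLiT-seq, a method that tags the RNA of fixed cells in successive rounds of wells. The 6 lungs of a group were pooled into 1 suspension before barcoding, and the cells of both pools were divided into 4 sublibraries. Cells cannot be traced to a mouse, so a sublibrary is a technical aliquot, n is 1 pool per genotype, and no test between genotypes was possible. All intervals below are 95% intervals that cover counting error only.

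Foxj1 is a forkhead transcription factor that switches on the genes of motile cilia, the beating structures of airway multiciliated cells. RFX proteins bind the X-box, a DNA element found in the promoters of many ciliary genes, through a winged-helix domain. Rfx2 and Rfx3 act in ciliogenesis, partly together with Foxj1, Rfx1 is expressed in many tissues, and Rfx7 is known from lymphoid cells and from a growth-restraining programme downstream of p53. In airway epithelium p73 is known to act upstream of Foxj1 and other regulators of multiciliated cells.

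An X-box half-site, GTTGCC, called the core below, was searched on both strands in the RefSeq promoter windows of mouse build GRCm38.p6. Each window was 300 bases long and reached from 250 bases before to 50 bases after a transcription start. Of the 5 genes, 4 had a window. The core lay in the windows of Rfx1, Rfx2 and Rfx3, and the 30 bases around each match are shown. A full X-box was not searched for. Capitals mark the core, and each sequence is written in the direction of transcription.
Rfx1: tgggtagcaacaGTTGCCccggtgagggaa
Rfx2: agcttggtaaccGTTGCCgggcgcaacgcc
Rfx3: gttatagcaaccGTTGCCttgtgaatcaag
The Rfx1 stretch is chr8:84066825-84066854 on the + strand, and its core begins at position 2 relative to the start. The Rfx2 stretch is chr17:56831107-56831136 on the - strand, with the core at position -116. The Rfx3 stretch is chr19:28011118-28011147 on the - strand, with the core at position 32. No match lay in the Rfx7 window. The core was found in 12.5% of all 32851 promoter windows. Counted by gene, with any window of a gene taken, it was found for 14.1% of 27025 genes, for 9 of 13 ciliary transport genes known as RFX targets (69.2%) and for 2 of 17 known Rfx7 targets (11.8%). Of those transport genes, Mks1 of the ciliary transition zone is shown for comparison.
Mks1: gccagcgtctccGTTGCCaggggaacgagg
The Mks1 stretch, chr11:87853179-87853208, lies on the + strand. A forkhead core, GTAAACA, searched the same way, lay in 0 of the 4 windows of the RFX genes and in 3.65% of all windows. A match describes the letters only and not the binding of a factor.

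The targeted gene itself, Trp73, was read at 334 CPM in the ciliated-like cells of Cre_Neg and 312 CPM in those of Cre_Pos, where CPM is the UMIs (molecules) of a gene per 1000000 UMIs. The log2 ratio of Cre_Pos to Cre_Neg was -0.10. A count per gene does not separate the floxed exons from the rest of the transcript, so these values do not check the deletion. The 16356 cells kept held 80279069 UMIs in 7696 Cre_Neg cells and 86915171 UMIs in 8660 Cre_Pos cells, with median depths of 8713.5 and 8219 UMIs per cell. Ciliated-like cells, named from markers of motile cilia, made up 15.9% of kept Cre_Neg cells (1227 cells) and 1.45% of kept Cre_Pos cells (126 cells). Both pools held cells of either sex signal, and this difference was not the same in the 2 kinds. Among cells with Y-linked UMIs and no Xist UMI, ciliated-like cells were 15.7% in Cre_Neg (180 of 1148) and 19.1% in Cre_Pos (101 of 528). Among cells with Xist and no Y-linked UMI they were 16.7% (896 of 5356) and 0.0703% (5 of 7108). The labels give no sex, and whether the split follows single mice of the Cre_Pos pool cannot be told apart from an effect of sex.

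Nearly all Foxj1 UMIs came from ciliated-like cells and a related cluster. With the pools joined, it stood at 788 CPM in a small cluster led by Cdc20b, a gene of the deuterosome stage in which centrioles multiply, and at 434 CPM in ciliated-like cells. The next classes were far below, with 4.23 CPM from 11 UMIs in secretory-like cells and 2.33 CPM in a cluster led by the club cell gene Scgb1a1. Every other class had at most 1.46 CPM, and T or NK cell-like cells had 0 UMIs. Outside these 2 groups of cells, Foxj1 summed to 31 UMIs (0.516 CPM) in Cre_Neg and 41 UMIs (0.489 CPM) in Cre_Pos, and the ciliated-like level was 861-fold and 689-fold higher than in those other cells. Of single ciliated-like cells, 95% in Cre_Neg and 91.3% in Cre_Pos had a Foxj1 UMI, against 0.18% and 0.27% of blood endothelium-like cells, which should lack it. Median depths were 15516 and 16789 UMIs in the ciliated-like cells and 5845.5 and 7156 in the endothelium. After thinning each cell to 2000 UMIs the ciliated-like shares were 53.2% of 1217 cells and 42.5% of 120 cells, and the endothelial shares were 0.04% and 0.02%.

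Rfx2 and Rfx3 were highest in the same cells but had a broad floor elsewhere. With the pools joined, which hold unequal shares of each class, Rfx2 stood at 472 CPM in ciliated-like cells, 310 CPM in the cluster led by Cdc20b and 177 CPM in monocyte-like cells. In Cre_Neg alone the first pair did not differ beyond their intervals (474 and 466 CPM), and in Cre_Pos they were apart (460 and 221 CPM), while monocyte-like cells (111 CPM) overlapped AT1-like cells (106 CPM). Mesothelial-like cells and a cluster led by Pid1 followed at 94.6 CPM each. The lowest level, 12.5 CPM, was shared by blood endothelium-like cells and mast cell- or basophil-like cells. Rfx3 stood at 1089 CPM in ciliated-like cells and 1000 CPM in the cluster led by Cdc20b, and within each pool the intervals of this pair overlapped (1093 and 1046 CPM in Cre_Neg, 1053 and 974 CPM in Cre_Pos). Neuroendocrine-like cells (395 CPM) and T or NK cell-like cells (381 CPM) came next with overlapping intervals, and B cell-like cells followed at 299 CPM. Its lowest levels, 48.1 CPM each, were in AT1-like and alveolar macrophage-like cells. UMIs of Rfx3 were thus found in every class. Barcodes with at most 50 UMIs, which mostly hold free RNA, had 348 CPM of Rfx3 in Cre_Neg and 252 CPM in Cre_Pos. For Rfx2 they had 93.1 and 52.4 CPM. How much of the level in a class is free RNA was not tested.

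Rfx1 and Rfx7 were led by blood cells rather than ciliated cells. Rfx7 was highest in B cell-like cells at 373 CPM, then in mast cell- or basophil-like cells at 304 CPM and T or NK cell-like cells at 282 CPM. Ciliated-like cells had 105 CPM of Rfx7, between AT2-like cells at 86.8 CPM and neuroendocrine-like cells at 143 CPM. Rfx1 ran from 107 CPM in neutrophil-like cells, on 21 UMIs, and 91.4 CPM in T or NK cell-like cells to 20.2 CPM in alveolar macrophage-like cells. Ciliated-like cells had 45.1 CPM of Rfx1, and every pair of neighbours in the Rfx1 order had overlapping intervals. The number of cells of CD45-positive classes is set partly by the depletion, so the levels per UMI, not the numbers of cells, are compared here.

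**Figure D1:**
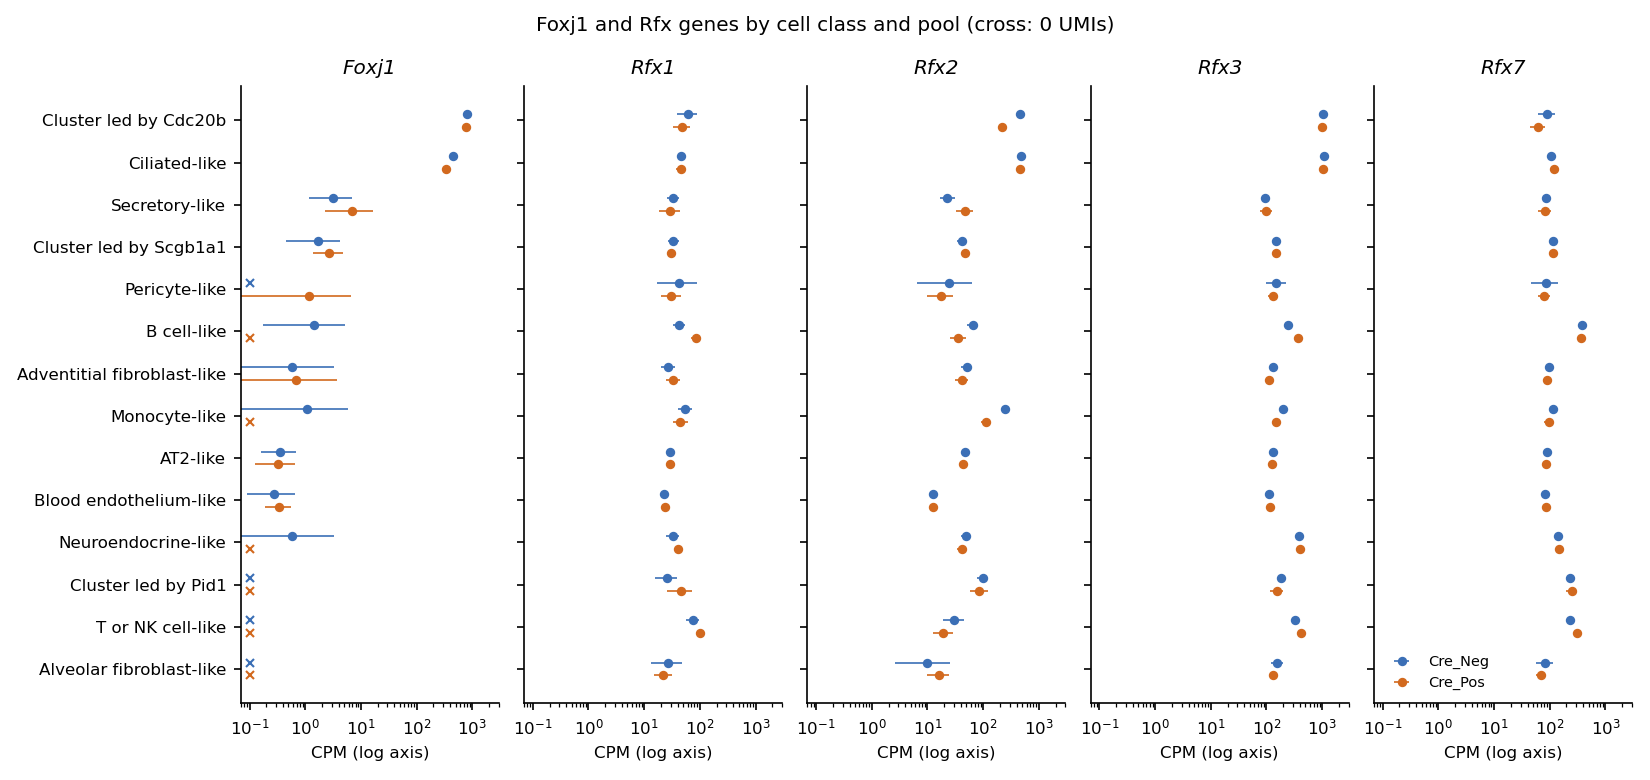
CPM (log axis) of each gene by cell class in the Cre_Neg and Cre_Pos pools, with 95% Poisson intervals cut at the axis limit, for classes with at least 100 cells in all and 20 in each pool; crosses mark 0 UMIs. Foxj1 is near 0 outside the cluster led by Cdc20b and ciliated-like cells, Rfx2 and Rfx3 are highest there above a broad floor, and Rfx7 is highest in B cell-like cells.

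Over the 16 named classes with at least 50 cells, the genes whose log2(CPM + 1) followed each member most closely were listed among 13158 genes, as a description across classes that share libraries. Foxj1 was followed by Gm29538 (Pearson's r 0.98), Deup1, which builds deuterosomes, Gm19935, Sptlc3 and the axonemal dynein Dnah6. Rfx2 was followed by Pdxk (0.84), Glb1l (0.83), Adgb, Ccdc146 and the ciliary kinesin Kif9 (0.77). Rfx3 was followed by Vwa3b (0.86), Fip1l1, Pspc1, Nek10 and Ubxn11 (0.80). The genes most like Rfx1 were Rsrc2 (0.94), Tbc1d10c and Oga, and those most like Rfx7 were the lymphocyte genes P2ry10 (0.95), Tespa1 and Rasal3. Between members, r was 0.64 for Foxj1 with Rfx2, 0.54 for Foxj1 with Rfx3, 0.63 for Rfx1 with Rfx7 and -0.16 for Foxj1 with Rfx7. It was 0.52 for Rfx1 with Rfx3, 0.38 for Rfx2 with Rfx3 and 0.33 for Rfx3 with Rfx7. The other pairs lay between -0.13 and 0.09. Many other genes had a higher r: of 13157 genes, Rfx2 ranked 733 and Rfx3 1075 by r with Foxj1. By r with Rfx1, Rfx7 ranked 582. Foxj1 was far lower in every named class but ciliated-like cells, so its r rests largely on that class.

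At full depth, most single ciliated-like cells had UMIs of all 3 ciliary factors. Foxj1, Rfx2 and Rfx3 each had a UMI in 92.3% of Cre_Neg cells (1133 of 1227) and 90.5% of Cre_Pos cells (114 of 126), against 1 of 2728 and 0 of 5586 blood endothelium-like cells. At 2000 UMIs per cell the shares were 26.4% and 25%, against 1 of 2524 and 0 of 5409 endothelial cells. Whether the 3 genes were found together more often than their single shares give was not tested. At full depth, ciliated-like cells without a UMI of any of the 3 numbered 0 of 1227 in Cre_Neg and 1 of 126 in Cre_Pos. UMIs of all 5 genes were found in 29.6% and 34.9% of these cells. Ciliated-like cells comprised a large cluster (1173 Cre_Neg and 124 Cre_Pos cells) and a small one (54 and 2 cells) whose leading genes included Dnah5 and Cyp2f2. In Cre_Neg the small cluster had 554 against 438 CPM of Foxj1, and 409 against 478 CPM of Rfx2.

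Within ciliated-like cells, Foxj1 was lower in Cre_Pos. Its level by sublibrary was 435, 451, 433 and 462 CPM in Cre_Neg and 366, 376, 303 and 300 CPM in Cre_Pos. All 4 Cre_Pos values lay below all 4 Cre_Neg values. Summed over sublibraries, the 8832 Cre_Neg UMIs came to 445 CPM and the 780 Cre_Pos UMIs to 336 CPM, which gives -0.40 on the log2 scale (interval -0.51 to -0.30). In the median cell Foxj1 was at 379 and 278 CPM. The summed level of the ciliated markers fixed for naming moved in the same direction, from 18071 to 16431 CPM, and that of secretory markers was 2058 and 2554 CPM in these cells, and their part in the Foxj1 difference was not tested. In cells with Y-linked UMIs and no Xist UMI, Foxj1 stood at 465 and 361 CPM in the Cre_Neg and Cre_Pos pools, and the log2 ratio was -0.37 (interval -0.50 to -0.24), and was lower in 4 of 4 sublibraries. The 2 ratios share most of their Cre_Pos cells, since these Y-linked cells were 101 of 126 ciliated-like cells in Cre_Pos. In Cre_Neg they were 180 of 1227, and 896 had Xist only. The Y-linked ratio is thus not a separate check of the Cre_Pos level. The 5 Cre_Pos cells with Xist only had 96 CPM of Foxj1, on 9 UMIs, against 436 CPM in Cre_Neg. Within Cre_Neg the Y-linked cells had 0.10 more Foxj1 than the Xist cells on the log2 scale (interval 0.01 to 0.18). With 1 pool each, the Foxj1 difference cannot be told apart from a difference between the mice pooled.

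The intervals of all 4 RFX genes included 0 when all ciliated-like cells were counted. In the large ciliated-like cluster alone (1173 and 124 cells) those of Rfx3 and Rfx7 narrowly left out 0. The log2 ratios there were -0.07 (interval -0.13 to -0.004) for Rfx3 and 0.20 (interval 0.009 to 0.38) for Rfx7. Rfx2 was at 461, 485, 476 and 469 CPM in the Cre_Neg sublibraries and 519, 408, 441 and 464 CPM in the Cre_Pos ones. Rfx3 was at 1071, 1102, 1119 and 1076 CPM in Cre_Neg and 1076, 1093, 929 and 1217 CPM in Cre_Pos. For both genes the Cre_Pos values lay on either side of the Cre_Neg ones, with log2 ratios of -0.04 (interval -0.14 to 0.05) for Rfx2 and -0.05 (interval -0.11 to 0.01) for Rfx3. In cells with Y-linked UMIs Rfx3 was at 997 and 1062 CPM, 0.09 higher in Cre_Pos on the log2 scale (interval 0.01 to 0.17), and Rfx2 was at 447 and 453 CPM. Rfx1 was at 42.1, 45.4, 45.4 and 47.9 CPM in Cre_Neg and 49.7, 51.2, 41.4 and 37.5 CPM in Cre_Pos, with a log2 ratio of 0.01. Rfx7 was at 98.8, 92.3, 111 and 116 CPM in Cre_Neg and 128, 132, 102 and 107 CPM in Cre_Pos, with a log2 ratio of 0.18 (interval -0.01 to 0.36). The Rfx1 and Rfx7 sublibraries overlapped between pools as well. Of the 5 genes 0 passed 1.5-fold in either direction, against 8.8% of the 10908 genes with at least 100 UMIs in these cells. Thinned to 2000 UMIs, the shares of ciliated-like cells with a UMI were 58.4% and 57.5% for Rfx2, 86.6% and 86.7% for Rfx3, 8.55% and 9.17% for Rfx1, and 17.4% and 22.5% for Rfx7.

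**Figure D2:**
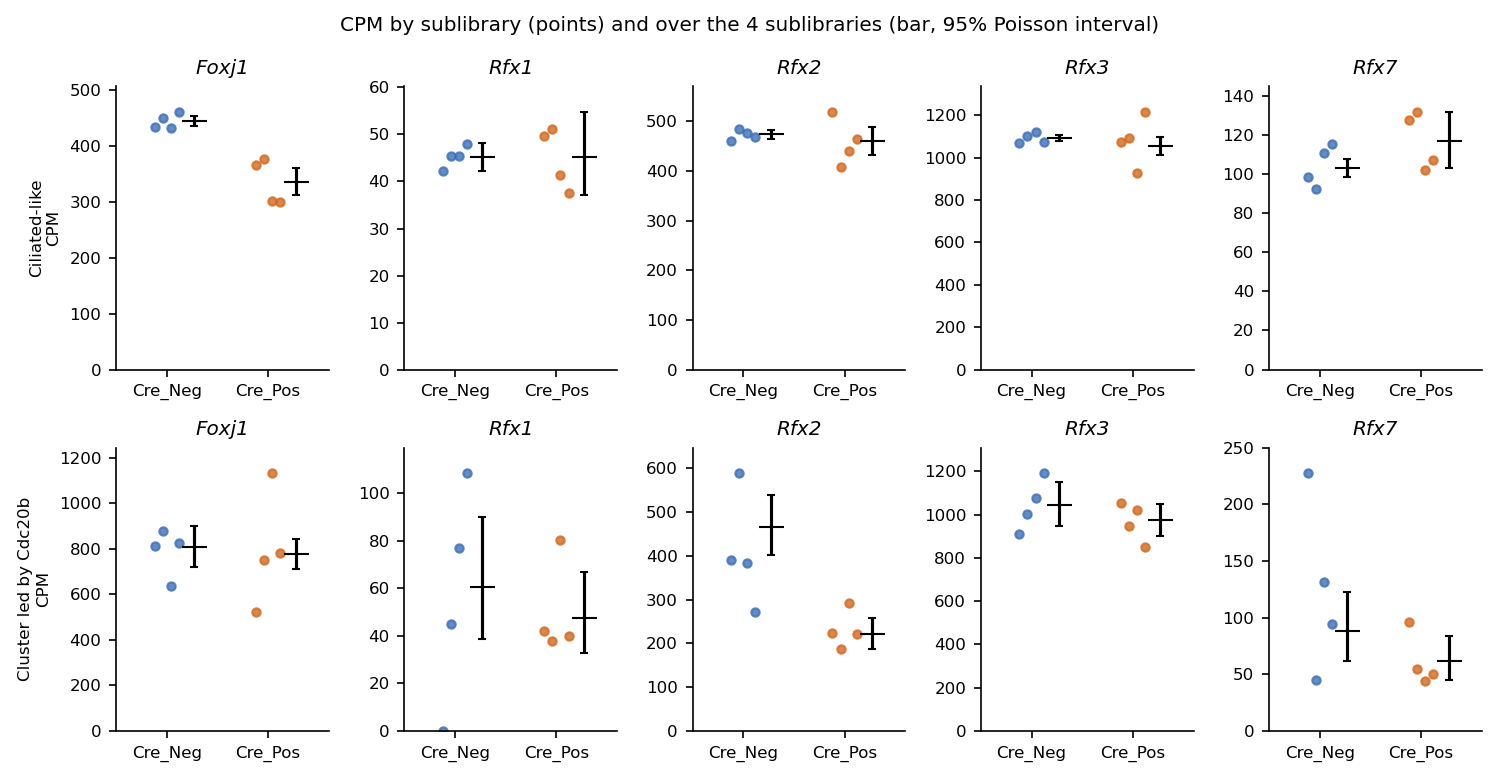
CPM of each gene by sublibrary (points) and over the 4 sublibraries (bars with 95% Poisson intervals) in the 2 pools, for ciliated-like cells (top) and the cluster led by Cdc20b (bottom). In ciliated-like cells only the Foxj1 points of the pools are apart (433 to 462 against 300 to 376 CPM), and in the cluster led by Cdc20b Rfx2 is lower in Cre_Pos with a small overlap.

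The cluster led by Cdc20b held 41 Cre_Neg and 61 Cre_Pos cells with a median of 1206 and 1054 UMIs, and it was left unnamed because it carried all 11 ciliated markers while its first leading gene, Cdc20b, is a marker of the deuterosome stage. Its markers of the deuterosome stage summed to 8785 and 7433 CPM, and 0 of 10 of them were at 0. These sums came from a part of the cells. A Cdc20b UMI was found in 12 of 41 Cre_Neg and 20 of 61 Cre_Pos cells, and 17 and 21 cells reached 2000 UMIs. Whether the other cells belong to the deuterosome stage was not tested. Foxj1 overlapped there between the pools, with 812, 877, 636 and 825 CPM in the Cre_Neg sublibraries and 523, 752, 1131 and 782 CPM in the Cre_Pos ones. The totals of 807 and 776 CPM give a log2 ratio of -0.06, but 1 Cre_Pos cell held 150 of the 538 Foxj1 UMIs. Without the 5 deepest cells of each pool, Foxj1 was at 903 and 530 CPM (-0.77), so that its ratio rested on few cells. Relative to the ciliated-like cells of the same pool, summed Foxj1 was 0.86 higher on the log2 scale in Cre_Neg and 1.21 higher in Cre_Pos. The order of the pools in this excess also rested on few cells. Without the 5 deepest cells of each class and pool, the cluster and the ciliated-like cells were at 903 and 445 CPM in Cre_Neg. In Cre_Pos they were at 530 and 336 CPM, so that the order turned. Means of per-cell CPM were 554 and 428 in Cre_Neg and 328 and 311 in Cre_Pos.

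Rfx2 was lower in the Cre_Pos cells of this cluster, at 390, 588, 384 and 271 CPM in the Cre_Neg sublibraries against 223, 186, 292 and 221 CPM in the Cre_Pos ones. A single pair of values overlapped, 271 and 292 CPM. The totals were 466 and 221 CPM, a log2 ratio of -1.08 (interval -1.40 to -0.76), and without sublibrary 2 the ratio was -0.48, within 1.5-fold. In cells with Xist only (16 and 21 cells) it was -0.79, and without the 5 deepest cells of each pool Rfx2 was at 417 and 248 CPM. Markers of other cell types moved in this cluster too, with summed levels of 161 and 472 CPM for general capillary markers, 2650 and 3296 CPM for secretory markers and 320 and 432 CPM for AT2 markers, and their part in the Rfx2 difference was not tested. Of these markers 2 of 8, 2 of 10 and 2 of 9 were at 0 in Cre_Neg. In Cre_Pos the numbers were 0, 2 and 0. Rfx3, at 1046 and 974 CPM, had a log2 ratio of -0.10. Rfx1 was at 60.5 and 47.6 CPM and Rfx7 at 88.3 and 62.1 CPM, on 24 to 43 UMIs per pool. Of the 5 genes 1 was past 1.5-fold lower, against 11.7% of the 6943 genes with at least 20 UMIs in the cluster. Mcidas, the geminin-family regulator that starts the multiciliated programme, was at 537 and 648 CPM there, with a UMI in 9 of 41 and 18 of 61 cells.

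Summed over all kept cells, Foxj1, Rfx2 and Rfx3 were lower in Cre_Pos. Foxj1 stood at 114 CPM in the Cre_Neg pool against 15.6 CPM in the Cre_Pos pool (log2 ratio -2.87). Rfx2 was at 150 and 40.5 CPM (-1.89), and Rfx3 at 376 and 171 CPM (-1.13). Rfx1 (33.1 and 29.2 CPM) and Rfx7 (104 and 97.9 CPM) differed by -0.18 and -0.08. Of the 5 genes 3 were past 1.5-fold lower, against 19.8% of the 17028 genes with at least 100 UMIs. In a sum over all cells taken by itself, fewer cells of a type and less RNA per cell cannot be told apart. Ciliated-like cells were 15.9% of kept cells in Cre_Neg and 1.45% in Cre_Pos, and the ratios within them are given above. Ciliated-like cells supplied 96.2% of Foxj1 UMIs in Cre_Neg and 57.4% in Cre_Pos, where the cluster led by Cdc20b supplied 39.6%. Their share of Rfx2 UMIs was 78.2% and 30.3%, and their share of Rfx3 UMIs was 71.9% and 16.4%.

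The differences over all cells were larger in cells with Xist than in cells with Y-linked UMIs, a comparison that was not tested. Among the latter, Foxj1 was at 118 and 97.8 CPM (log2 ratio -0.27), Rfx2 at 150 and 151 CPM (0.01) and Rfx3 at 343 and 383 CPM (0.16). Among cells with Xist only, the log2 ratios were -4.21 for Foxj1, -2.44 for Rfx2 and -1.39 for Rfx3. Rfx7 was near 0 in both, at -0.06 and -0.09. Trp73 moved likewise over all kept cells, from 85.8 to 11.8 CPM, and was at 86.4 and 87.0 CPM in cells with Y-linked UMIs. Barcodes with at most 50 UMIs, which mostly hold free RNA, had 50 and 19.1 CPM of Foxj1 and 348 and 252 CPM of Rfx3. They had 25.4 and 23.7 CPM of Rfx1 and 110 and 102 CPM of Rfx7.

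**Figure D3:**
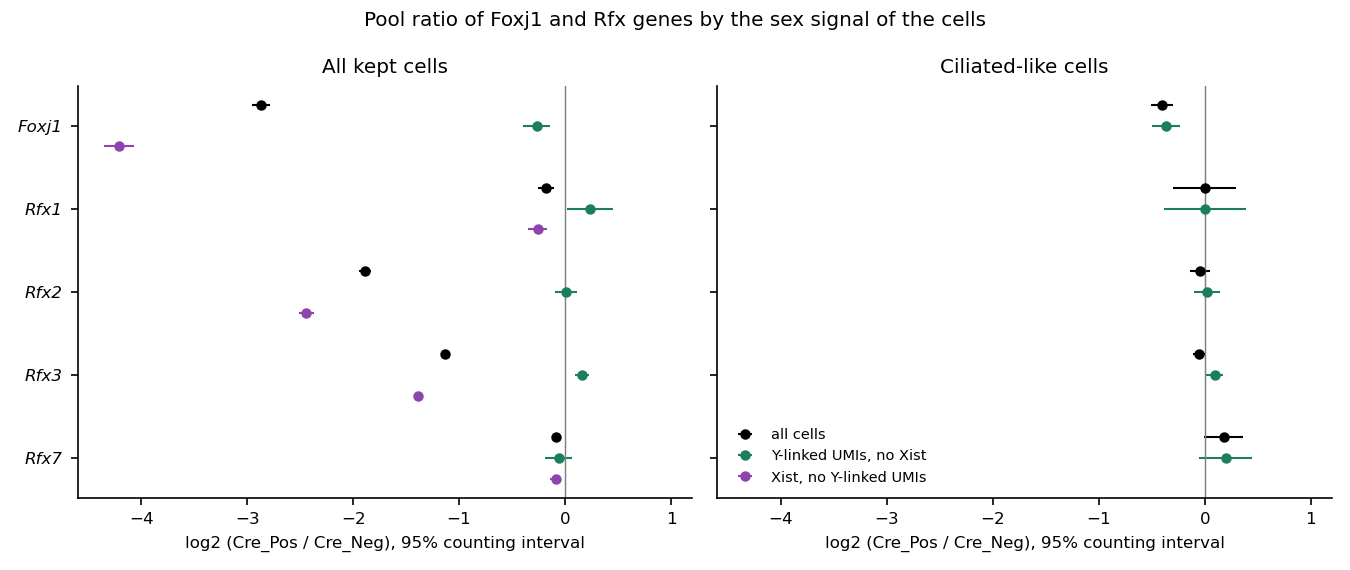
Log2 ratio of Cre_Pos to Cre_Neg CPM for each gene with 95% counting intervals, over all kept cells (left) and in ciliated-like cells (right), for all cells, cells with Y-linked UMIs and no Xist, and cells with Xist and no Y-linked UMIs (left only). Over all kept cells Foxj1 is at -2.87 for all cells and -0.27 for Y-linked cells, whereas in ciliated-like cells it is at -0.40 and -0.37.

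Genes that act with the members were read in ciliated-like cells from lists known to depend on them or to regulate them. Over the genes with at least 20 UMIs in these cells the median log2 ratio was 0.02, 46.6% lay below 0 and 18.3% were past 1.5-fold in either direction. Of 20 motile cilia genes known to depend on Foxj1, 0 passed 1.5-fold in either direction, 16 lay below 0 and the median was -0.07. The outer dynein arm chain Dnai1 was among the lowest at -0.21, and Pifo (0.12) and the radial spoke protein Rsph9 (0.07) were the highest. Among cells with Y-linked UMIs the list median was 0.06. Of 18 ciliary transport genes known as RFX targets, 0 passed 1.5-fold, 9 lay below 0 and the median was -0.03. They ran from Ift20 (-0.29) and Mks1 (-0.22) to Ift57 (0.07), a protein of intraflagellar transport, and the transition zone protein Tmem67 (0.11). Over all kept cells 20 of 20 Foxj1-dependent and 18 of 18 transport genes were past 1.5-fold lower, against 22.6% of the genes with at least 20 UMIs, with medians of -2.72 and -1.22.

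Regulators of the multiciliated fate varied more, but mostly on few UMIs. Of 17 genes 16 had at least 20 UMIs, with 2 past 1.5-fold higher, against 8.35% of all genes, 1 past 1.5-fold lower, against 9.93%, and a median of -0.09. Gmnc, the geminin relative at the top of the programme, was at 3.48 and 14.2 CPM (2.03), but 1 cell held 24 of its 33 Cre_Pos UMIs. Ccno, a cyclin-like protein of centriole amplification, was at 0.62, Foxn4, a forkhead regulator, at -0.56, and Cdc20b at -1.60 on 26 and 1 UMIs. Of 6 other RFX genes and RFX partners 3 were measured, namely Rfx5 (-0.38), Rfxank (-0.95, on 83 and 5 UMIs) and Rfxap (0.23), which together switch on MHC class II genes. Of 19 genes known as RFX7 targets 13 lay below 0 and 1 passed 1.5-fold, the immediate early gene Junb at 29.9 and 15.5 CPM (-0.95). The stress gene Ddit4 was at -0.40, and the others at the upper end were Tspyl2 (0.13) and Pik3ip1 (0.45), a brake on PI3K signalling.

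**Figure D4:**
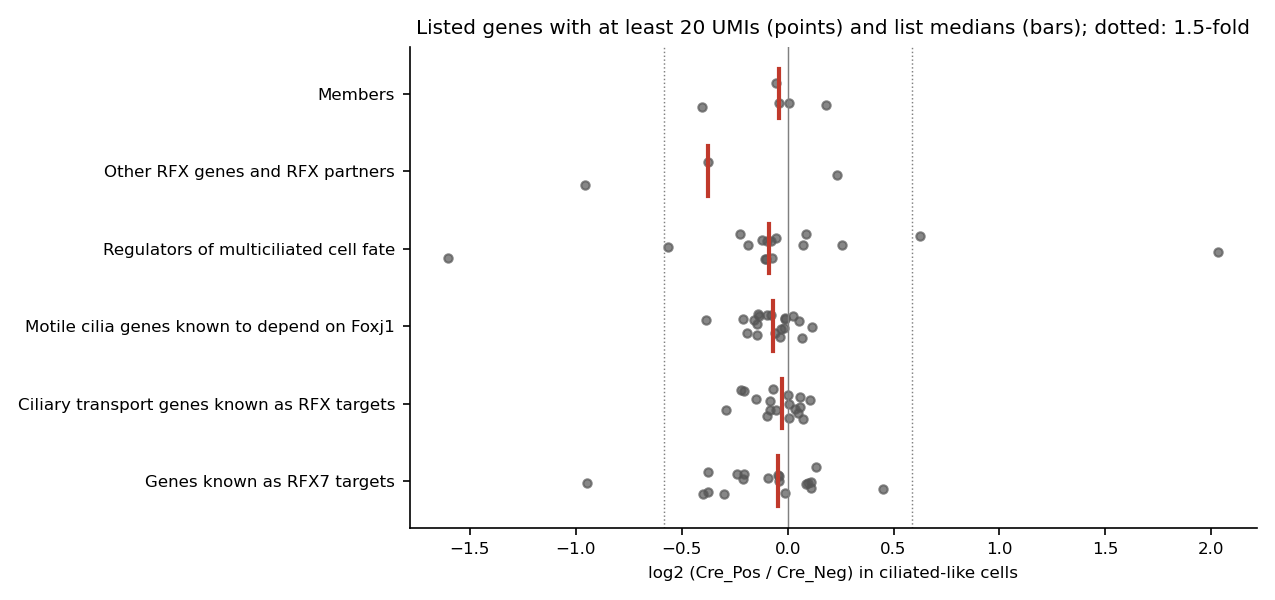
Log2 ratio of Cre_Pos to Cre_Neg CPM in ciliated-like cells for each listed gene with at least 20 UMIs (points), with list medians (bars) and 1.5-fold limits (dotted). The 20 Foxj1-dependent and 18 transport genes all lie within 1.5-fold, and the points beyond it are Gmnc (2.03), Ccno (0.62), Cdc20b (-1.60), Rfxank (-0.95) and Junb (-0.95).

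Among blood cells, B cell-like cells (222 Cre_Neg and 184 Cre_Pos) had the most RFX genes past 1.5-fold, but finer clustering split them unequally between the pools. Rfx1 was at 48.8, 55.5, 26.8 and 33.8 CPM in the Cre_Neg sublibraries and 85.8, 83.0, 92.4 and 86.9 CPM in the Cre_Pos ones, without overlap. Its totals were 42.7 and 86.6 CPM, a log2 ratio of 1.02 (interval 0.53 to 1.51). Rfx3 was at 259, 224, 208 and 280 CPM in Cre_Neg and 391, 376, 293 and 434 CPM in Cre_Pos, also without overlap. Its totals of 243 and 371 CPM gave 0.61 (interval 0.40 to 0.83), and 0.56 without sublibrary 2, which is within 1.5-fold. Rfx2 went the other way at 64.4 and 35.9 CPM (-0.84), with ratios of -0.55 without sublibrary 4 and -1.33 without sublibrary 1. Rfx7, the member for which these cells stood highest, was at 384 and 360 CPM (-0.09). Thus 3 of the 4 RFX members passed 1.5-fold, against 10.8% of the 4128 genes with at least 100 UMIs in these cells. A single Cre_Neg cell held 20 of the 89 Cre_Neg Rfx2 UMIs, and without it the Rfx2 ratio was -0.48. At Leiden resolution 2 the class fell into a cluster of 155 Cre_Neg and 176 Cre_Pos cells and another of 67 and 8 cells. Within the larger cluster no RFX gene was past 1.5-fold: Rfx1 was at 57.8 and 80.4 CPM (0.47), Rfx3 at 297 and 380 CPM (0.35) and Rfx7 at 452 and 362 CPM (-0.32). Rfx2 turned direction there, at 27.6 and 35.2 CPM (0.35, interval -0.47 to 1.2). In Xist-only cells the ratios were 0.93 for Rfx1, 0.48 for Rfx3 and -1.17 for Rfx2. B cell markers summed to 11648 and 10706 CPM, T cell markers to 40.5 and 79.2 CPM and proliferation markers to 36.9 and 5.53 CPM, and their part in these differences was not tested.

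Monocyte-like cells (134 and 124) held the third highest Rfx2 level. It was at 271, 371, 125 and 177 CPM in the Cre_Neg sublibraries and 166, 68.7, 145 and 58.8 CPM in the Cre_Pos ones, so that the Cre_Pos values of 166 and 145 CPM lay above the lowest Cre_Neg value. The totals of 245 and 111 CPM gave -1.14 (interval -1.49 to -0.81), and -0.61 without sublibrary 2. Of the members this 1 passed 1.5-fold, against 7.62% of the 3279 genes with at least 100 UMIs. Markers of classical monocytes summed to 3540 and 2775 CPM and those of nonclassical monocytes to 2676 and 3504 CPM, and their part in the Rfx2 difference was not tested. In T or NK cell-like cells (114 and 188), Rfx3 was at 321 and 419 CPM (0.38), Rfx7 at 233 and 314 CPM (0.43) and Rfx1 at 75 and 102 CPM (0.44). Rfx2, on 24 UMIs in each pool, was the 1 member past 1.5-fold (-0.64), against 29.6% of the 8689 genes with at least 20 UMIs. The T cell cluster in this class was 61 and 126 cells and the NK cell cluster 53 and 62. Rfx3 differed by 0.46 in the former and 0.02 in the latter, Rfx1 by 0.78 and -0.22, and Rfx7 by 0.43 and 0.05. Rfx2 was at 6.27 and 13.2 CPM in the T cell cluster, on 2 and 11 UMIs (1.07). In the NK cell cluster Rfx2 was at 45.7 and 31.4 CPM (-0.54), so the class ratio mixes unlike directions. The differences between the ratios of the clusters, and the part of the cluster mix in the class ratios, were not tested. In Xist-only cells of the class the ratios were 0.12 for Rfx3, 0.21 for Rfx7 and -0.12 for Rfx1.

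Summed over each of the large classes, the RFX genes were level between the pools. In AT2-like cells the log2 ratios of Rfx1, Rfx2, Rfx3 and Rfx7 lay between -0.10 and 0.00, and in blood endothelium-like cells between -0.00 and 0.08. In both classes 0 of the 4 passed 1.5-fold, against 2.72% of the genes with at least 100 UMIs in each. By cluster, Rfx2 was less even. In an AT2-like cluster of 346 cells per pool it was at 61.1 and 44.5 CPM (-0.46, interval -0.72 to -0.19), and in the larger AT2-like clusters at -0.00 and 0.01. An endothelial cluster of aerocyte-like cells (418 and 842) had 0.53 (interval 0.01 to 1.08). The larger general capillary-like clusters had -0.42, 0.24 and -0.61, with intervals that included 0. In endothelial cells with Y-linked UMIs Rfx2 was at 22.6 and 13.1 CPM on 60 and 17 UMIs (-0.79, interval -1.66 to 0.00). In neuroendocrine-like cells, the class with the third highest Rfx3 level, Rfx3 was at 377 and 404 CPM (0.10).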

How the data were processed

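The deposited matrix holds whole-number counts of transcripts (UMIs) per barcode and gene, which the authors made with Parse Evercode WT v2 barcoding per the labels' protocols. An aligner and a counter were not given in the sources used here. The submitters' processing notes name GRCm39, and the gene table names mm10, so no coordinates of the files were used and promoter coordinates are those of RefSeq on GRCm38.p6. Whether strand was used in counting is not given either, so overlapping and antisense transcripts cannot be told apart. Pools were assigned from the first barcoding well, per the labels.

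Barcodes with at least 500 genes (16579 cells) and at most 15% mitochondrial UMIs (16541) were kept, and Scrublet's method, run in each sublibrary, removed 185 doublets (1.12%). The study states 20000 cells in all. Of 16254 distinct well triples, 283 occurred in more than 1 sublibrary, and these were kept as separate cells. Cells were clustered with scanpy 1.11.5 and python-igraph 0.11.9 (Leiden resolution 1, 30 components, 15 neighbours, Python 3.11.15) and named "-like" from marker lists, with thresholds set after seeing the data; 3 clusters stayed unnamed. UMIs were summed by class, pool and sublibrary and divided by the summed UMIs to give CPM. Intervals are exact Poisson for levels, Clopper-Pearson for shares and conditional binomial for ratios, computed with scipy 1.17.1. Those for levels and ratios were tested on simulated Poisson counts. These hold no spread between cells, so the test does not cover that spread. PCR duplicates are collapsed by UMI, and intervals cover counting error only. A cell was given a sex signal from Ddx3y, Kdm5d, Eif2s3y and Uty against Xist.

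All 5 members are described. The genes most like a member are the 5 (Foxj1, Rfx2, Rfx3) or 3 (Rfx1, Rfx7) with the highest correlation, and from each list the 2 highest, the 2 lowest and those past 2-fold are named, apart from 1 gene that is not reported here; Trp73, Mcidas and the genes with a promoter shown were named outside this rule. The members, lists and rules were chosen with earlier results of these data known. Alternatives were other filters, doublets kept, per-cell means, other clusterings, 1 sex signal only and each sublibrary left out; the Xist-only values, those without the deepest cells and those for parts of the B cell class were added after seeing the data.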

Additional observations from a re-analysis of the deposited data

Results flagged for a closer look

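Of 94 groups of 4 sublibraries compared for a member in a class and pool, 4 had 1 sublibrary far from the others by Dixon's criterion, which chance meets in about 1 in 20 groups. All 4 were in Cre_Pos. Rfx1 in the cluster led by Cdc20b was at 80.3 CPM in sublibrary 3, against 37.9, 40.1 and 42.1 CPM in the others. Rfx1 in monocyte-like cells was at 13.8 CPM in sublibrary 1, against 52.9, 53.5 and 54.2 CPM. Rfx1 in neuroendocrine-like cells was at 20.8 CPM in sublibrary 2, against 45.8, 49.1 and 50.7 CPM. Rfx7 in T or NK cell-like cells was at 403 CPM in sublibrary 2, against 253, 260 and 269 CPM.

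Of 15 pairs of a member and a class (or all kept cells) compared by sex signal, 2 were flagged. Over all kept cells, Rfx1 and Rfx3 differed between the pools in opposite directions by the sex signal of the cells. Rfx1 had a log2 ratio of 0.24 in cells with Y-linked UMIs and -0.26 in cells with Xist, and Rfx3 had 0.16 and -1.39. The class make-up differed too, with ciliated-like cells at 15.7% and 19.1% of Y-linked cells and 16.7% and 0.0703% of Xist cells, Cre_Neg first. These differences, and the part of the make-up in them, were not tested.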

How the results depend on the processing

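The ratios of the members in ciliated-like cells moved by less than the spread between sublibraries in 60 of 60 alternatives. Clustering without Foxj1 and the RFX genes returned the same 1353 ciliated-like cells, so that setting could not move a ratio. Leaving out a sublibrary gave -0.46 to -0.34 for Foxj1 and 0.06 to 0.30 for Rfx7. The ranges of Rfx1 (-0.08 to 0.08), Rfx2 (-0.13 to 0.02) and Rfx3 (-0.10 to 0.04) held both signs. No paired analysis was possible because the sublibraries are aliquots of the same 2 pools and no test was run. Over all kept cells, cells with Y-linked UMIs alone gave -0.27 for Foxj1, 0.24 for Rfx1, 0.012 for Rfx2 and 0.16 for Rfx3, the last 2 with the sign turned, and the mean of per-cell CPM gave -0.85 for Rfx3. Cells with Xist alone, a setting chosen after seeing the data, gave -4.21, -2.44 and -1.39 for Foxj1, Rfx2 and Rfx3. In the cluster led by Cdc20b that mean gave -0.76 for Foxj1, 1.35 for Rfx1, 0.22 for Rfx3 and 0.67 for Rfx7, and 5 cells hold 63.7% and 41.2% of the UMIs. Without those 5 cells of each pool, also chosen after seeing the data, Foxj1 was at -0.77. In T or NK cell-like cells Rfx2 turned to 0.22 with that mean and to 0.83 at Leiden resolution 2. In the larger of the B cell clusters at resolution 2, chosen after seeing the data, Rfx2 turned to 0.35. The level of Rfx2 in ciliated-like over other cells became 4.07 on the log2 scale with that mean. Thinning to 2000 UMIs lowered the shares of ciliated-like cells with a UMI, Cre_Neg first, to 53.2% and 42.5% (Foxj1), 8.55% and 9.17% (Rfx1), 58.4% and 57.5% (Rfx2), 86.6% and 86.7% (Rfx3) and 17.4% and 22.5% (Rfx7).

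List medians in Y-linked cells were -0.66 for the other RFX genes, -0.036 for the multiciliated regulators, 0.058 for Foxj1-dependent and 0.074 for transport genes. With at least 100 UMIs the other RFX genes had -0.071. Without 1 sublibrary, medians ran from -0.74 to -0.11 for the other RFX genes, -0.090 to -0.022 for the regulators and -0.15 to -0.027 for RFX7 targets. The 433 higher and 527 lower genes past 1.5-fold in ciliated-like cells became 1206 and 1434 with at least 20 UMIs and 214 and 158 in Y-linked cells. Apart from those that follow from the setting (fewer cells, fewer UMIs or other genes), the cause was not tested. Y-linked cells were too few for the cluster led by Cdc20b and the B, monocyte and T or NK classes (under 10 in a pool), as were Xist cells for ciliated-like cells. With 1 pool of 6 mice per genotype, no value has a replicate check.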
